A study of Sus scrofa with 24 samples.

Results

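The genes described here are nuclear genes for subunits of the oxidative phosphorylation complexes, measured in 24 piglets in the oxyntic mucosa, the stomach lining that secretes acid. They were the genes whose symbol in the array's annotation table began with NDUFA, NDUFB, NDUFC, NDUFS or NDUFV (complex I), SDHA, SDHB, SDHC or SDHD (complex II), UQCR (complex III), COX4 to COX8 (complex IV) or ATP5 (complex V). Where a symbol had several transcript clusters, the array's unit of measurement for a gene, the cluster with the highest mean was kept. The rule found 48 of the 10882 genes compared. Of these, 42 were subunits: 21 of complex I, 1 of complex II, 2 of complex III, 8 of complex IV and 10 of complex V. NDUFA4L2 was counted with complex IV, because its close relative NDUFA4 is a subunit of that complex. The other 6 genes were NDUFAF1, NDUFAF3, NDUFAF4, NDUFAF6, NDUFAF7 and SDHAF2, assembly factors that help to build complexes I and II without being part of them. The RefSeq gene table holds 68 subunit symbols under the same rule, 37 for complex I, 4 for complex II, 2 for complex III, 10 for complex IV and 15 for complex V, so complex II was covered by SDHD alone. The table's symbols do not make up whole complexes: complex III has nuclear subunits beside the 2 measured, and these and the remaining subunits were not analysed here.

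Complexes I to IV of the inner mitochondrial membrane pass electrons from NADH and succinate to oxygen, and complexes I, III and IV pump protons as they do so. Complex V, the ATP synthase, uses the proton gradient to make ATP. The oxyntic gland is known for its parietal cells, which are packed with mitochondria and spend ATP on the gastric proton pump.

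The piglets were a (Great York x Pietrain) x Dalland cross, delivered by caesarean section, given pasteurized sow colostrum and a starter of Lactobacillus amylovorus, Clostridium glycolicum and Parabacteroides spp., and sampled at 3 weeks of age. In a factorial design with 6 piglets per group, complex association (CA) piglets then received diluted faeces of an adult sow and simple association (SA) piglets a placebo, and each association was fed a diet with medium chain triglycerides (MCT) or a control diet (CON). The groups were CA MCT (pigs 7 to 12), CA CON (pigs 1 to 6), SA MCT (pigs 19 to 24) and SA CON (pigs 13 to 18). In the MCT diet coconut oil took over from soy and palm oil, so that a difference between diets belongs to the exchange of fats and not to the added oil alone. The sources differ on housing: per the labels CA and SA piglets had rooms of their own, while the study's methods place piglets of each group in every pen or room. No room is given per piglet, and under the labels' account the association and the room cannot be told apart. Litters were spread over the groups and piglets shared pens, but no litter, pen, sex or scan date is given per piglet, so the p-values treat the piglets as independent. The study reports feed intake by pen. If each pen was fed a single diet, the diet and the pen cannot be told apart.

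Each piglet gave 1 array. The deposited intensity had a median of 23.13 to 26.4 per array, and each array's median correlation with the others was 0.9851 to 0.994, except for pig 4 of CA CON and pig 10 of CA MCT, which lay lower. Markers of the labelled tissue were bright. ATP4A, the catalytic subunit of the proton pump, had a median intensity of 3601 in CA MCT, 3554 in CA CON, 3575 in SA MCT and 3650 in SA CON piglets. The summed intensity of the 7 measured parietal markers of 16 listed was 7696 to 9306 in CA MCT, 7843 to 9254 in CA CON, 8778 to 9860 in SA MCT and 7310 to 10077 in SA CON. ATP4B and the pepsinogen gene PGC were also among the brightest genes. The 4 striated muscle markers measured of 8 listed had mean intensities of 7.68 to 15.8. The 4 smooth muscle markers measured of 9 listed had 175 to 1730. The 5 fibroblast markers measured of 6 listed had 733 to 3773, so the samples were not epithelium alone. In bulk tissue, fewer cells of a type and less RNA per cell cannot be told apart.

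The mean intensity, which is read from different probes for each gene, of the 48 members ran between 4.94 for COX8H, the heart-type isoform of subunit VIII, and 2196 for ATP5B, the catalytic beta subunit of the ATP synthase. COX8H and NDUFAF6 were the 2 members among the dimmest 40% of clusters. The spread between piglets of 1 group, as the SD of log2 intensity, was 0.16 at the median of the 42 subunits, against 0.20 at the median of all genes. By complex the median SD was 0.17 for complex I, 0.10 for SDHD, 0.27 for complex III, 0.17 for complex IV and 0.13 for complex V. The steadiest member was COX6A1, a nuclear subunit of cytochrome c oxidase, with an SD of 0.071 and a ratio of 1.23 between its highest and lowest piglet. The most variable by SD was NDUFA6, an accessory subunit of the matrix arm of complex I, with an SD of 0.38 and a ratio of 2.55.

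Much of the variation lay between piglets and was shared by the complexes. For each piglet, the log2 intensity of each gene was taken relative to the mean of that gene over all 24 arrays, and the median of these deviations was formed over the subunits. It ran between -0.23 and 0.12 in CA MCT piglets (median -0.035), between -0.057 and 0.19 in CA CON piglets (median 0.10), between -0.12 and 0.12 in SA MCT piglets (median -0.030) and between -0.18 and 0.12 in SA CON piglets (median 0.0095). The groups overlapped widely, with a pooled within-group SD of 0.11. Complexes I, III, IV and V were all above their mean in 8 piglets, all below it in 9 and of mixed sign in 7. At the extremes, 39 of the 42 subunits were above their own mean in pig 6 of CA CON and in pig 11 of CA MCT, against 2 of 42 in pig 9 of CA MCT and in pig 13 of SA CON. Over all genes, the share above the mean was 42.5% to 53.3% in every piglet.

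The parietal markers and the genes of the tricarboxylic acid (TCA) cycle, which feeds NADH to complex I, also differed between these piglets. In pig 9 the median deviation was -0.23 for the subunits, -0.23 for the 7 parietal markers and -0.21 for the 11 TCA cycle genes measured. In pig 18 of SA CON these values were -0.18, -0.54 and -0.12. In pig 6 they were 0.19, 0.14 and 0.16. Other piglets did not follow this order: pig 13 had -0.14 for the subunits with -0.0023 for the parietal markers and 0.0099 for the TCA cycle genes, and pig 10 had -0.074 for the subunits with -0.034 and -0.22 for the other lists. The part of parietal cell content in the subunit values was not tested.

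**Figure D1:**
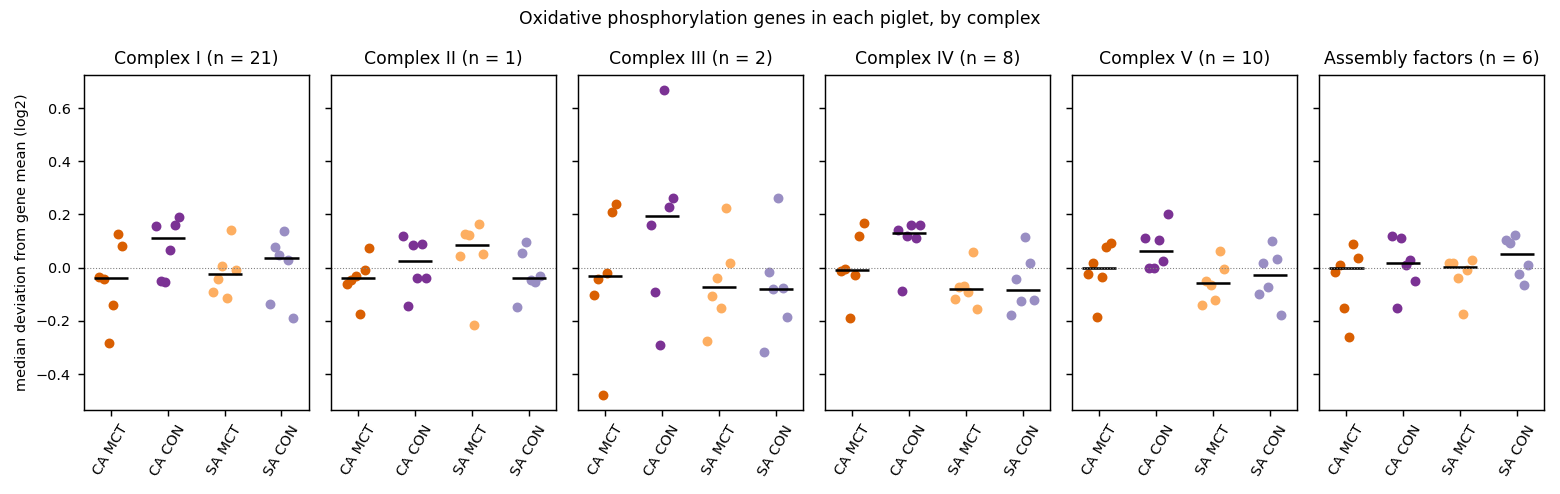
Median deviation of log2 intensity from the gene mean for each piglet (points; horizontal bars are group medians, 6 piglets per group), by complex and for the assembly factors. In complex IV, 5 of 6 CA CON piglets lay at 0.11 to 0.16 and pig 2 at -0.087, while complex III, with 2 genes, was spread most widely, up to 0.67 in pig 4.

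The first comparison asked whether the complex microbiota went with other levels of these genes in piglets fed the control diet. The mean log2 intensity in CA CON exceeded that in SA CON for 39 of the 42 subunits, where 49.9% of all genes were higher. The subunits moved together within piglets, so this count and those of the later comparisons are not counts of independent genes. The median difference was 0.12 on the log2 scale, a fold of 1.08, against -0.00036 over all genes. By complex, 18 of 21 subunits of complex I were higher (median 0.075), SDHD was higher by 0.034, both subunits of complex III were higher (median 0.22), as were all 8 of complex IV (median 0.15) and all 10 of complex V (median 0.11). In limma 0 members passed an adjusted p of 0.05. At an unadjusted p under 0.05 there were 4 members, all subunits that were higher, where 4.25% of all genes passed that line (1.92% higher and 2.33% lower). The ranges of CA CON and SA CON overlapped for every member, where 0.0919% of all genes lay wholly higher and 0.0551% wholly lower. Differences between complexes were not tested. Without pig 18 the median was 0.045 for complex I and 0.067 for complex V, and without pig 5 it was 0.047 for complex I.

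The complex I genes code for the largest complex of the chain. NDUFA2, an accessory subunit of its matrix arm, had the highest moderated t of the complex in this comparison. It measured 514 at the lowest, 544 at the median and 571 at the highest in CA CON, against 393, 484 and 556 in SA CON. All 6 CA CON piglets lay above 5 of the 6 SA CON piglets. The difference was 0.20 ± 0.087 (log2, SE), with a 95% interval of 0.024 to 0.38 and an adjusted p of 0.943. The lowest t belonged to NDUFA6, with 24.4, 46.6 and 57.01 in CA CON, against 35.0, 44.3 and 60.9 in SA CON (difference -0.076 ± 0.20). NDUFA12 and NDUFS6 were the other complex I genes that were lower in CA CON. The core subunits measured, NDUFS1, NDUFS3 and NDUFV2 of the electron-transferring arm, were higher by 0.12, 0.0094 and 0.038.

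In complex II, SDHD, which anchors succinate dehydrogenase in the membrane, measured 903 at the lowest, 1017 at the median and 1086 at the highest in CA CON, against 902, 973 and 1067 in SA CON. The groups overlapped almost fully, with a difference of 0.034 ± 0.071. In complex III, the small subunit UQCR10 had the largest difference of any subunit, 0.30 ± 0.18. Its intensity was 16.9, 26.2 and 51.8 in CA CON, against 18.7, 21.0 and 27.2 in SA CON. The highest value came from pig 4, and without this array complex III had a median difference of 0.12. UQCRB, known as the ubiquinone-binding subunit, had 363, 436 and 492 in CA CON, against 316, 384 and 484 in SA CON (difference 0.15 ± 0.12).

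Complex IV, cytochrome c oxidase, held 3 of the 4 genes at an unadjusted p under 0.05. COX7A2, the widely expressed isoform of subunit VIIa, measured 339, 431 and 488 in CA CON, against 314, 341 and 469 in SA CON, and 5 of the 6 CA CON piglets lay above 5 of the 6 SA CON piglets. Its difference was 0.24 ± 0.11. COX6A1 had 1930, 2121 and 2243 in CA CON, against 1819, 1930 and 2071 in SA CON, a small but even difference of 0.12 ± 0.059. COX8H measured 4.71, 5.10 and 9.80 in CA CON, against 4.47, 4.71 and 5.16 in SA CON (difference 0.27 ± 0.13). It lay near the floor of the array, and the difference was 0.11 without pig 4, its highest piglet. The array of pig 4 had the lowest median correlation with the others, 0.960. In this piglet the 4 striated muscle markers had a median deviation of 0.50, against -0.25 to 0.16 in the other piglets. These markers were dim, with mean intensities of 7.68 to 15.8. Their summed intensity was 41.8 to 51.6 in CA MCT, 40.8 to 71.1 in CA CON, 42.5 to 51.1 in SA MCT and 40.5 to 52.7 in SA CON piglets, and their part in the COX8H value was not tested. COX6B, a subunit on the intermembrane side, had 277, 383 and 436 in CA CON, against 286, 340 and 353 in SA CON, and all CA CON piglets except pig 2 lay above the highest SA CON piglet (difference 0.16 ± 0.082). NDUFA4L2, a gene known to be induced by low oxygen, had 13.8, 25.4 and 26.6 in CA CON, against 16.0, 17.7 and 29.0 in SA CON (difference 0.22 ± 0.16). The smallest t was that of COX7C, at 0.059 ± 0.088.

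In complex V, the highest t belonged to ATP5L, subunit g of the membrane part, with 287, 342 and 362 in CA CON, against 268, 290.0 and 362 in SA CON (difference 0.17 ± 0.097). ATP5H, subunit d of the peripheral stalk that holds the enzyme still, had 372, 422 and 488 in CA CON, against 296, 376 and 421 in SA CON (difference 0.20 ± 0.11). Of the catalytic pair, ATP5B had the lowest t of the complex, with a difference of 0.024 ± 0.065, and ATP5A1, the alpha subunit, differed by 0.080 ± 0.069. ATP5G1 and ATP5G3 encode the same mature subunit c of the rotor ring, and were higher by 0.078 ± 0.075 and 0.13 ± 0.077.

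**Figure D2:**
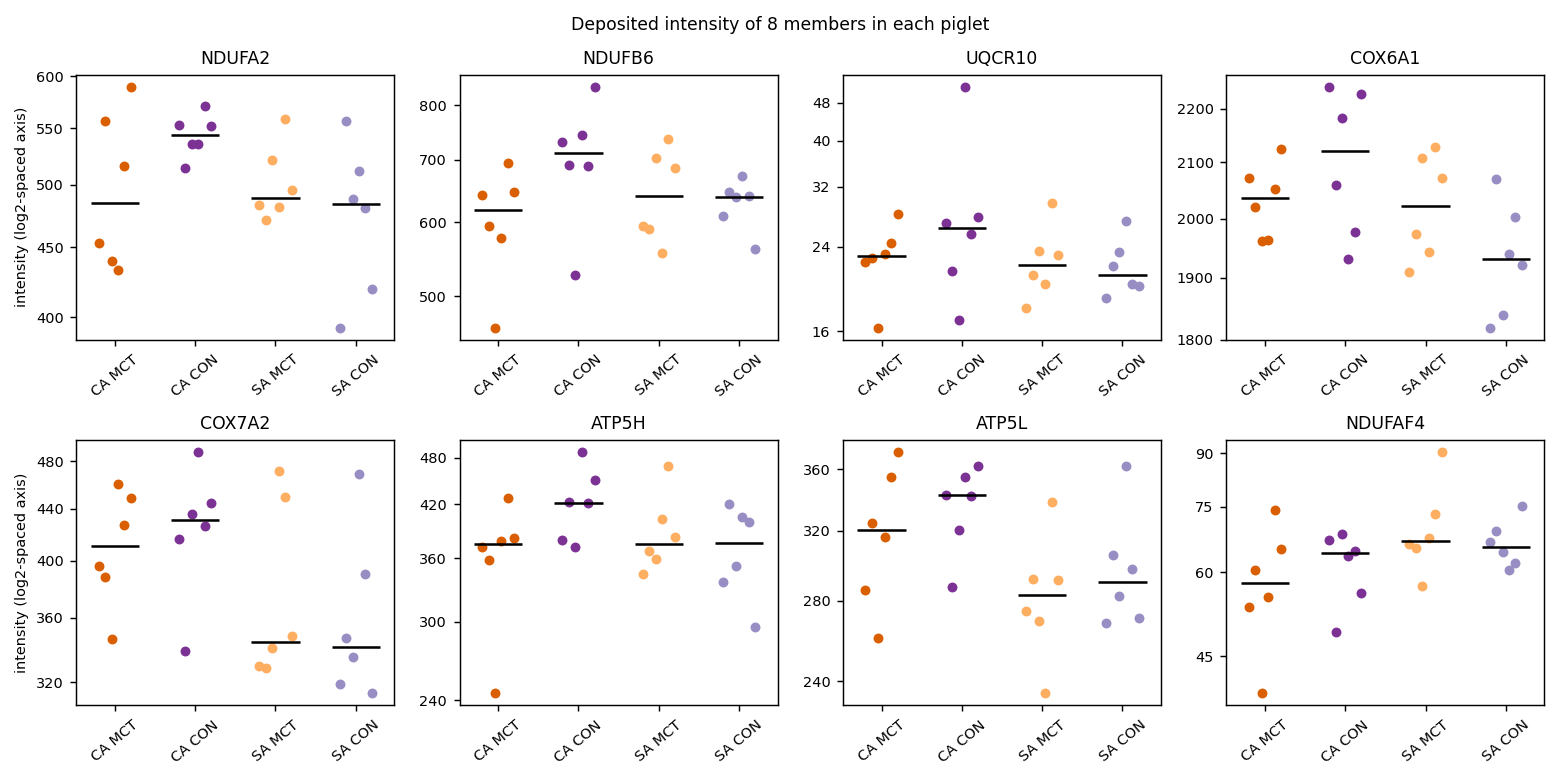
Deposited intensity of 8 members (points are piglets, horizontal bars group medians, log2-spaced vertical axes) in CA MCT, CA CON, SA MCT and SA CON, 6 piglets each. NDUFA2 was tightly grouped in CA CON, at 514 to 571, UQCR10 reached 51.8 in 1 CA CON piglet, and the groups overlapped in each panel.

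On the MCT diet the same contrast gave no common direction. Of the 42 subunits 19 were higher in CA MCT than in SA MCT, where 48.1% of all genes were higher, and the median difference of -0.0057 had the opposite sign, 0.0132, when each array was centred on its median. Complex I was higher for 6 of 21 (median -0.032) and complex V for 5 of 10 (median 0.014), while complex IV was higher for 6 of 8 (median 0.074). Single piglets moved these values: the count was 14 of 42 without pig 11 and 29 without pig 9, and the median was 0.016 for complex I without pig 9, -0.0075 for complex V without pig 22 and 0.035 for complex IV without pig 12. With limma, 0 members passed an adjusted p of 0.05, and 1 member, the assembly factor NDUFAF4, had an unadjusted p under 0.05, where 2.66% of all genes did (1.3% higher and 1.36% lower). No member had groups that did not overlap, against 0.0735% of all genes wholly higher and 0.119% wholly lower. Among the subunits the lowest t was that of NDUFA5, an accessory subunit of the matrix arm, with 118, 160.2 and 178 in CA MCT, against 150.3, 175 and 199 in SA MCT (difference -0.19 ± 0.11). COX6C, a small membrane subunit of complex IV, had 323, 383 and 471 in CA MCT, against 304, 338 and 387 in SA MCT (difference 0.18 ± 0.11). ATP5L differed by 0.17 ± 0.097, the same size as on the control diet, and SDHD by -0.089 ± 0.071.

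Over both diets, 32 of the 42 subunits were higher in CA than in SA piglets, where 49.5% of all genes were, with a median of 0.060. All 8 subunits of complex IV were higher (median 0.11), as were 9 of 10 of complex V (median 0.071), both of complex III (median 0.12) and 13 of 21 of complex I (median 0.027), while SDHD was lower by 0.028. With a piglet left out, the complex I median ran between 0.0054 (without pig 11) and 0.056 (without pig 9), that of complex III was 0.072 without pig 4, and that of complex IV was 0.071 without NDUFA4L2. No member passed an adjusted p of 0.05 in limma. At an unadjusted p under 0.05 there were 4 members, where 4.14% of all genes passed (1.76% higher and 2.37% lower). ATP5L was higher by 0.17 ± 0.068, COX7A2 by 0.18 ± 0.080 and COX8H by 0.20 ± 0.090 (0.12 without pig 4), and NDUFAF4 was lower by 0.20 ± 0.087. The adjusted p was 0.943 for each. In complex I the highest t was that of NDUFB9, an accessory subunit of the membrane arm, at 0.15 ± 0.074, just short of the unadjusted line with a p of 0.0516.

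**Figure D3:**
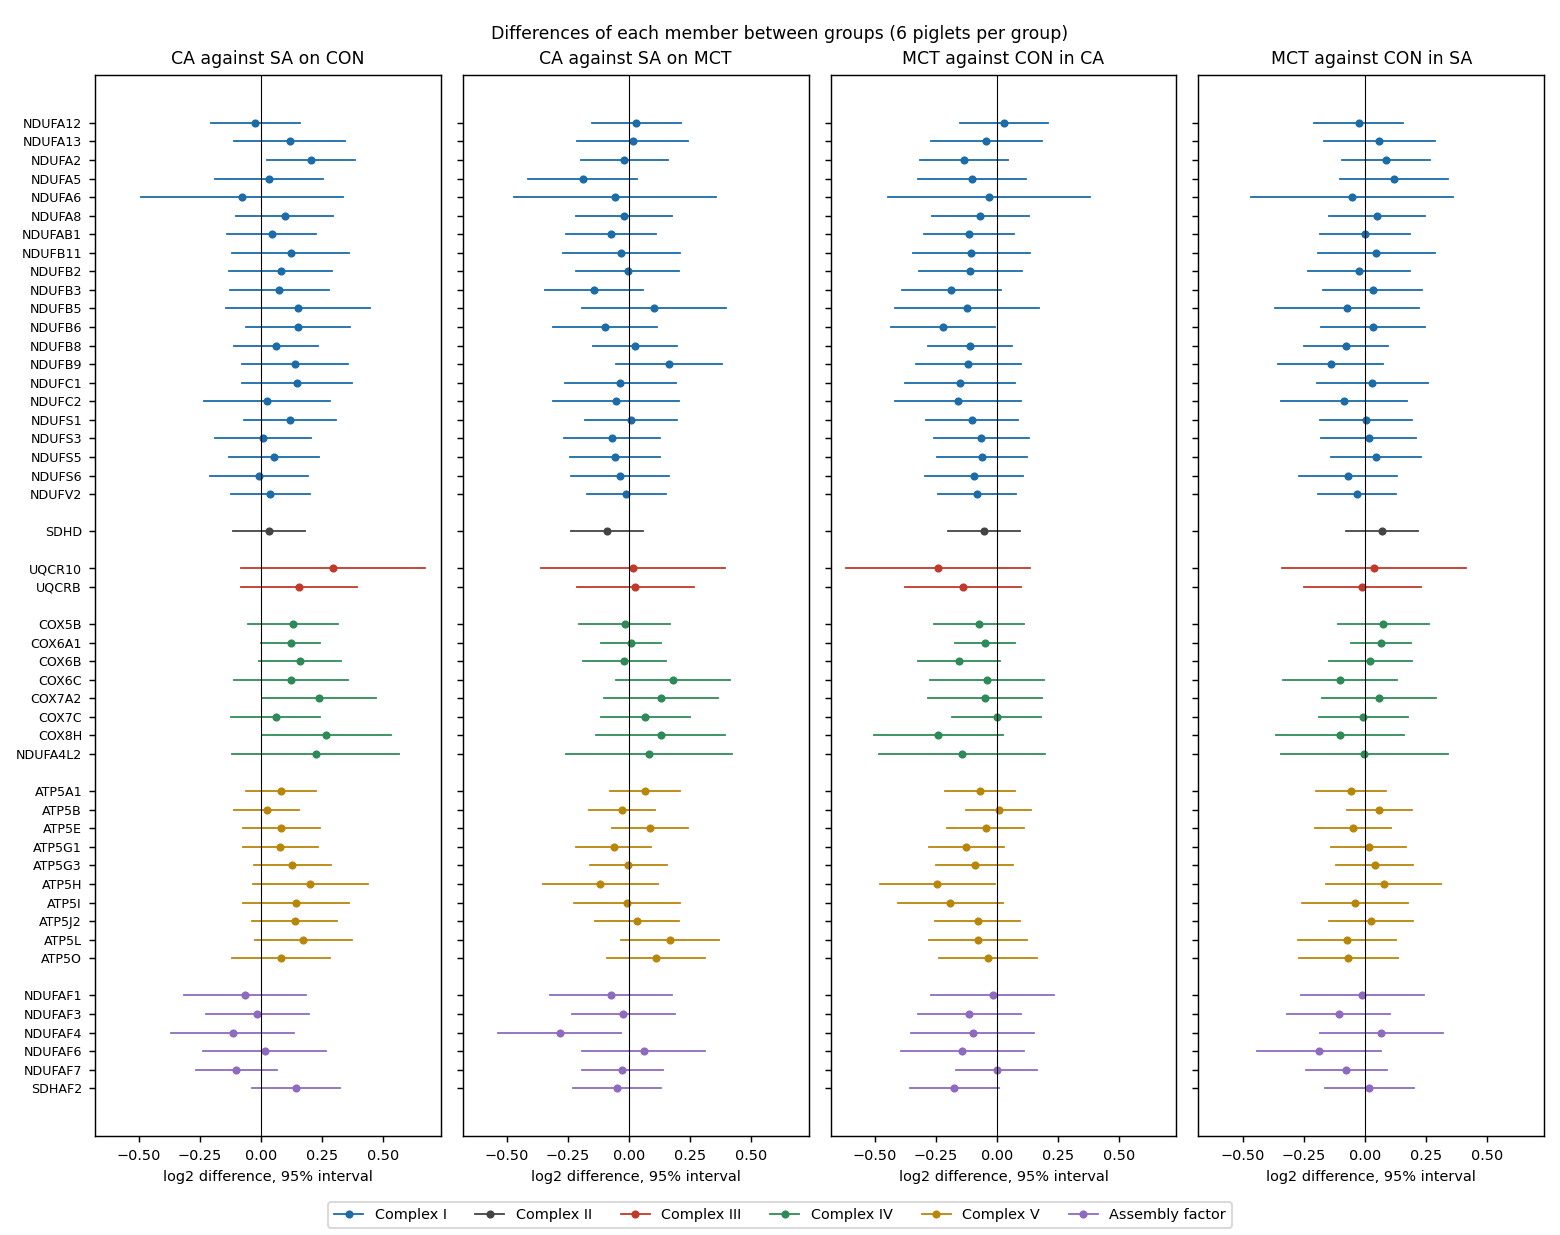
Log2 difference of each of the 48 members between groups of 6 piglets, with 95% intervals from limma (horizontal axis), coloured by complex. On CON, 39 of 42 subunits lay to the right of 0 for CA against SA, and in CA piglets 39 of 42 lay to the left of 0 for MCT against CON.

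The effect of the diet was asked within each association. These comparisons are not independent of the ones above, since CA CON piglets stand in both CA against SA on CON and MCT against CON in CA. In CA piglets, 3 of the 42 subunits were higher on MCT than on CON, where 50.5% of all genes were higher, and the median difference was -0.098, a fold of 0.935. By complex, 1 of 21 subunits of complex I was higher (median -0.10), SDHD was lower by 0.053, neither subunit of complex III was higher (median -0.19), and 1 of 8 in complex IV (median -0.060) and 1 of 10 in complex V (median -0.078) were higher. Without pig 9 the medians were -0.059, -0.030 and -0.032 for complexes I, IV and V, complex III had -0.086 without pig 4 and -0.10 without pig 9, and complex IV had -0.10 without pig 2. No member passed an adjusted p of 0.05 in limma, and 2 had an unadjusted p under 0.05, where 3% of all genes did (1.64% higher and 1.35% lower). The ranges overlapped for every member, against 0.0368% of all genes wholly higher and 0.0368% wholly lower.

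The subunits at an unadjusted p under 0.05 were NDUFB6 and ATP5H. NDUFB6, an accessory subunit of the membrane arm of complex I, measured 463 at the lowest, 618 at the median and 694 at the highest in CA MCT, against 527, 711 and 838 in CA CON. Its difference was -0.22 ± 0.10. ATP5H had 245, 375 and 427 in CA MCT, against 372, 422 and 488 in CA CON (difference -0.24 ± 0.11). Pig 9 held the lowest value of both genes in CA MCT, and without it the differences were -0.15 and -0.14. The adjusted p was 0.999 for each. COX6B was even in CA MCT at 319, 333 and 344, against 277, 383 and 436 in CA CON (difference -0.16 ± 0.082). UQCR10 differed by -0.24 ± 0.18 and UQCRB by -0.14 ± 0.12. The genes that were higher on MCT were NDUFA12, by 0.029 ± 0.088, COX7C, by 0.00055 ± 0.088, and ATP5B, by 0.0072 ± 0.065.

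In SA piglets, 23 of the 42 subunits were higher on MCT than on CON, where 52.5% of all genes were higher. The median difference was 0.011, and it was -0.0065 with each array centred on its median and 0.037 without pigs 4, 10 and 22. No member passed an adjusted or an unadjusted p of 0.05 in limma, where 2.04% of all genes passed the unadjusted line (1.21% higher and 0.827% lower), and no member had groups that did not overlap, against 0.0643% of all genes wholly higher and 0.0551% wholly lower. Complex I was higher for 12 of 21 (median 0.0056), complex IV for 4 of 8 (median 0.011) and complex V for 5 of 10 (median -0.012). The count of subunits was 14 without pig 23 and 30 without pig 16, and the median of each of these complexes had the opposite sign without at least 1 piglet (-0.028 for complex I without pig 23, -0.019 for complex IV without pig 13 and 0.019 for complex V without pig 22). The highest t in complex I was that of NDUFA5, at 0.12 ± 0.11, and the lowest that of NDUFB9, at -0.14 ± 0.11. SDHD was higher by 0.070 ± 0.071, with 860.0, 1062 and 1120 in SA MCT, against 902, 973 and 1067 in SA CON. Over both associations, 8 of 42 subunits were higher on MCT, where 51% of all genes were, with a median of -0.055. The count was 3 without pig 18 and 11 without pig 9. No member passed an adjusted p of 0.05 in limma, and 0 passed the unadjusted line, where 2.34% of all genes did (1.38% higher and 0.965% lower).

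The interaction subtracts the CA minus SA difference on CON from that on MCT and tests for each gene whether the contrasts differ between diets. It was above 0 for 7 of the 42 subunits, where 49% of all genes were above 0, and below 0 for the other 35. The median of the subunits was -0.11. By complex the median was -0.10 for complex I, -0.12 for SDHD, -0.20 for complex III, -0.13 for complex IV and -0.079 for complex V. Without pig 18 complex I had -0.043 and complex V -0.028, and without pig 9 these were -0.053 and -0.052. Complex III had -0.10 without pig 4 and -0.11 without pig 9, and complex V had -0.0086 with the clusters of each gene averaged. The count above 0 was 2 of 42 without pig 16 and 12 without pig 18. Of the 48 members 0 passed an adjusted p of 0.05 in limma and 0 passed an unadjusted p of 0.05, where 2.53% of all genes did (1.28% higher and 1.25% lower). The lowest t was that of ATP5H, at -0.32 ± 0.16 with an unadjusted p of 0.0586. A difference between the diets in the CA against SA contrast was not established for any single subunit.

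CA CON had the highest mean of the 4 groups for 34 of the 42 subunits, where it had the highest mean for 28.6% of all genes. It was the lowest group for 0 of 42, against 29.6% of all genes. The 34 subunits were 16 of complex I, both of complex III, 7 of complex IV and 9 of complex V. CA MCT was highest for 2 subunits, SA MCT for 4 and SA CON for 2, against 23.2%, 24.6% and 23.6% of all genes. Most differences were smaller than the spread between piglets. On CON, CA and SA differed by more than the within-group SD for 9 of 42 subunits, and on MCT for 2. The diets did so for 7 in CA and 0 in SA piglets, and the interaction for 11. The share of all genes past that line was not counted. The median absolute log2 difference was 0.12 on CON (0.081 over all genes) and 0.054 on MCT (0.067). For the diets it was 0.098 in CA (0.073) and 0.049 in SA piglets (0.063). The 95% intervals lay within a fold of 1.5 in either direction for 41 of 42 subunits for CA against SA on CON and for MCT against CON in CA, with UQCR10 the exception in both, where 92.1% and 92.9% of all genes did so. This held for 38 of 42 for the interaction, against 76.9% of all genes, and for all 42 in the other comparisons, against 94.4% to 98.9% of all genes.

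The arrays that stood apart were left out together with SA MCT pig 22, the next lowest in correlation. Without pigs 4, 10 and 22, CA CON exceeded SA CON for 40 of 42 subunits (median 0.084), where 52.8% of all genes were higher. In CA piglets 3 of 42 were higher on MCT (median -0.073), against 49.8% of all genes. The interaction was above 0 for 8 of 42 (median -0.11), against 47.8% of all genes. Single piglets outside these moved the medians more. Without pig 18 the median for CA against SA on CON was 0.067 and over both diets 0.033. Without pig 9 the median for MCT against CON was -0.054 in CA piglets and -0.032 over both associations, and that of the interaction was -0.067. With each piglet left out in turn, the count of subunits higher in CA CON against SA CON was 35 to 41, and the count higher on MCT in CA piglets 0 to 5. The share of all genes was not set beside the counts with a single piglet left out, here or above.

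Of the assembly factors, 2 of 6 were higher in CA against SA on CON (median -0.041), SDHAF2 by 0.14 ± 0.088 and NDUFAF6 by 0.015 ± 0.12. A difference from the subunits was not tested. SDHAF2 attaches the flavin cofactor to the catalytic subunit of complex II. For MCT against CON in CA piglets, 0 of 6 were higher (median -0.11). NDUFAF4, an assembly factor of complex I, measured 39.7 at the lowest, 57.8 at the median and 74.1 at the highest in CA MCT, 49.0, 64.0 and 68.2 in CA CON, 57.2, 66.8 and 90.5 in SA MCT, and 60.5, 65.3 and 75.3 in SA CON. It was lower in CA than in SA by 0.28 ± 0.12 on MCT (adjusted p 1.000) and by 0.12 ± 0.12 on CON. Pig 9 had the lowest value, and without it the difference on MCT was -0.18.

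The neighbouring genes of the pathway were described by lists of which no gene passed an adjusted p of 0.05 in any comparison. The mitochondrial genome encodes the other subunits of complexes I, III, IV and V, and 8 of these were measured: ND1, ND2, ND3, ND5 and ND6 of complex I, CYTB of complex III, and COX1 and COX2 of complex IV, where COX2 stands for the mitochondrial gene and not for cyclooxygenase. Of the 8, 7 exceeded their SA CON level in CA CON, by small amounts (median 0.038). The largest of these differences was that of COX2, at 0.072 ± 0.077. For MCT against CON in CA piglets, 4 of 8 were higher (median 0.0073), where the nuclear subunits had a median of -0.098. ND2 and ND6 were dim, with mean intensities of 22.0 and 22.3, against 2749 to 4060 for the other 6.

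Of the 11 TCA cycle genes, 6 had the higher mean in CA CON (median 0.0037 against SA CON) and 3 were higher on MCT in CA piglets (median -0.032). IDH3A, the catalytic subunit of isocitrate dehydrogenase, was lower in CA by 0.22 ± 0.083 on CON, with an unadjusted p of 0.0120, while its partner IDH3B was higher by 0.14 ± 0.073. Of the 13 electron carrier and exchange genes, 5 had a higher mean in CA CON against SA CON and 1 was higher on MCT in CA piglets (medians -0.010 and -0.046). ETFB, a subunit of the flavoprotein that passes electrons from fatty acid oxidation to the chain, differed by 0.22 ± 0.13 for CA against SA on CON and by -0.23 ± 0.13 for MCT against CON in CA. Of the 10 regulators of mitochondrial biogenesis, 3 had a higher mean in CA CON against SA CON and 6 were higher on MCT in CA piglets (medians -0.030 and 0.040). PPRC1, a coactivator of the PGC-1 family, had differences of -0.30 ± 0.15 and 0.28 ± 0.15, opposite in sign to the subunits in each. NRF1, a transcription factor known to act on many respiratory genes, had -0.13 ± 0.082 and 0.078 ± 0.082, and TFAM, which acts on mitochondrial DNA, had -0.0066 ± 0.073 and -0.11 ± 0.073. Of the 9 other assembly factors, 3 were higher in each comparison. Of the 3 inner and outer membrane neighbours, CHCHD3, LETM1 and TOMM20, 0 had a higher mean in CA CON against SA CON and 1 was higher on MCT in CA piglets. On the MCT diet, COQ4, which takes part in making ubiquinone, differed between CA and SA by -0.25 ± 0.10 and TFAM by -0.17 ± 0.073, and over both diets TOMM20, a receptor of the outer membrane import machinery, differed by -0.18 ± 0.068. These 3 had an unadjusted p under 0.05 in limma, where 2.66% of all genes did on MCT and 4.14% over both diets. They were picked as leading genes from all the lists and comparisons.

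**Figure D4:**
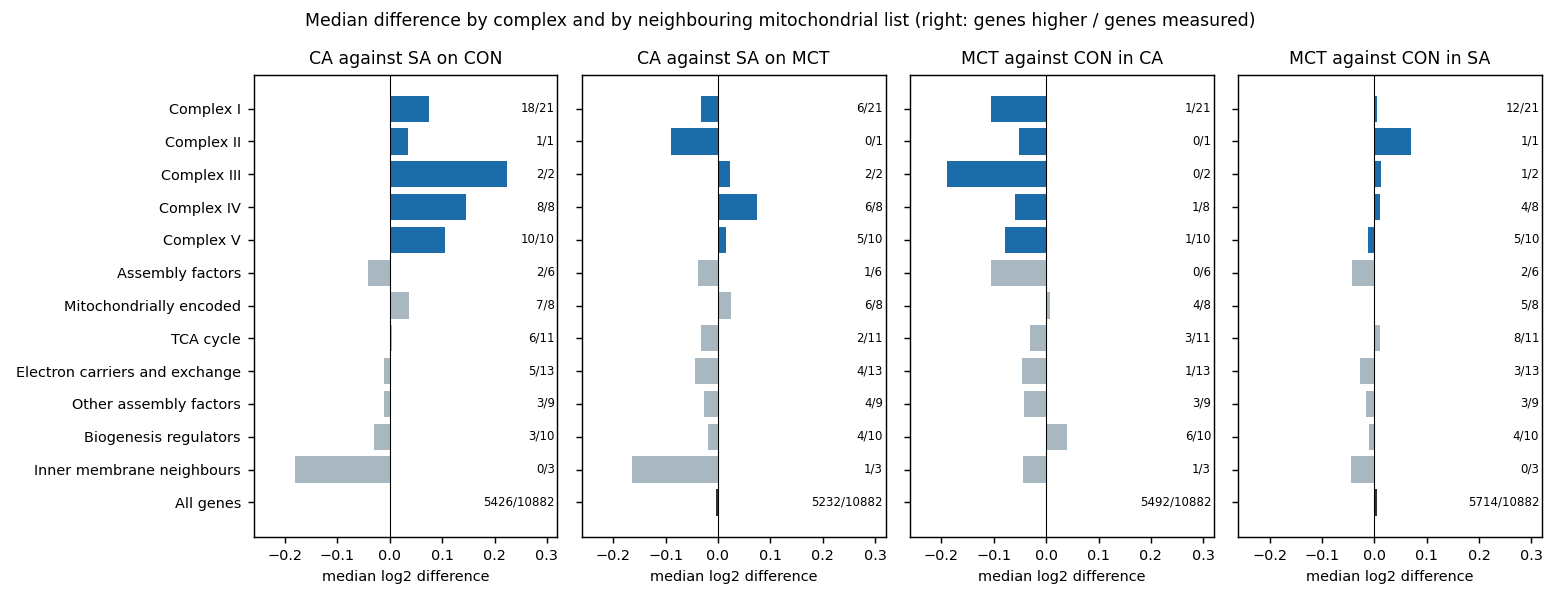
Median log2 difference (bars, horizontal axis) by complex, for the assembly factors, for 6 lists of neighbouring mitochondrial genes and for all genes, in 4 comparisons of 6 against 6 piglets, with genes higher over genes measured at the right. For CA against SA on CON, complexes I to V had medians of 0.075, 0.034, 0.22, 0.15 and 0.11, and the TCA cycle genes 0.0037. Complex II was SDHD alone and complex III 2 genes. Differences between these sets were not tested.

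The cell type markers were set beside these values. Of the 7 parietal markers, 4 had a higher mean in CA CON against SA CON (median 0.0096) and 2 were higher on MCT in CA piglets (median -0.016). GIF, the intrinsic factor gene, was lower in CA CON, against SA CON, by 0.60. Of the 3 chief cell markers measured of 7 listed, 1 had a higher mean in CA CON against SA CON (median -0.047). The chief cell factor BHLHA15, with a mean intensity of 47.0, was lower by 0.54. GIF and BHLHA15 had an unadjusted p under 0.05 in limma, where 4.25% of all genes did. All 5 fibroblast markers measured of 6 listed were higher in both comparisons (medians 0.091 and 0.060), and all 4 smooth muscle markers measured of 9 listed were lower in CA CON against SA CON (median -0.11). The part of these cells in the subunit values was not tested.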

How the data were processed

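Total RNA of oxyntic mucosa was hybridised to Affymetrix Porcine Gene 1.1 ST arrays, 1 per piglet. Per the labels, the authors summarised the scans by Robust Multichip Analysis, and the deposited values are intensity on a linear scale. They were taken as log2 here. The genome build of the clusters is not given in the sources used here. Of 27558 transcript clusters, 11939 had 1 gene symbol. Clusters with several symbols (416) were left out, among them 1 that shared SDHAF2. For 958 symbols with several clusters the brightest was kept, leaving 10882 genes. This held for 6 members. The 2 COX7A2 clusters had identical values on all 24 arrays.

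The members and lists were chosen with earlier results of these data known. A limma model (limma 3.58.1, R 4.3.3) of the 4 group means was fitted to all arrays (20 residual degrees of freedom), with Benjamini-Hochberg adjustment over all genes and standard errors of limma. The fit was tested on simulated data with independent genes and shifts larger than any subunit difference seen here. That test therefore does not bear on differences of the size reported. No set test was run, and lists are described by counts and medians. The genes named were those past an adjusted p of 0.05, those with the highest and lowest moderated t per complex and comparison, those with an unadjusted p under 0.05 in 2 or more of the 4 comparisons of 6 against 6 (none), isoform sets, the SDH genes, the members of lowest and highest spread, and at most 3 leading genes per list. Other members named were chosen after their values were seen. Alternatives were another normalization, centring, array weights, an intensity trend, fits on 12 arrays, a filter on the dimmest 40% of clusters, all clusters of a symbol, all clusters tested, NDUFA4L2 in complex I, and leaving out arrays. The number of arrays limits the precision.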

Additional observations from a re-analysis of the deposited data

Results flagged for a closer look

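In each group of 6, the highest or lowest piglet was set against the range of the group, for every member, for the median of each complex and for the median of all subunits. This was done 216 times and singled out 10 values, and about 1 in 20 groups is singled out by chance. Of these, 5 came from pig 22 of SA MCT, whose array was among those with the lowest correlation with the others. It was low for COX8H (3.88, against 4.44 to 4.75 in the other piglets of its group), NDUFS3 (519, against 645 to 711), SDHAF2 (51.3, against 65.3 to 73.0) and SDHD (860.0, against 1029 to 1120), and SDHD alone made up the median of complex II (-0.22, against 0.043 to 0.16 on the log2 scale).

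Pig 9 of CA MCT was low for ATP5A1 (1133, against 1329 to 1420) and ATP5H (245, against 358 to 427). Pig 4 of CA CON, the array with the lowest correlation of all, was high for NDUFAF6 (20.7, against 12.3 to 14.9). Pig 16 of SA CON was high for NDUFA4L2 (29.0, against 16.0 to 18.9). Pig 2 of CA CON was low for the median of complex IV (-0.087, against 0.11 to 0.16 on the log2 scale).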

How the results depend on the processing

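No member passed an adjusted p of 0.05 in limma under any alternative, including each piglet left out in turn. The median difference of the subunits kept its sign for CA against SA on CON and over both diets, for MCT against CON in CA and over both associations, and for the interaction. It turned with other settings for CA against SA on MCT (-0.0321 to 0.0265 with a piglet left out) and for MCT against CON in SA (-0.0267 to 0.0366). Complex II moved when all clusters of SDHD were averaged, to 0.088 for CA against SA over both diets and 0.040 on MCT.

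The counts of members at an unadjusted p under 0.05 were small and moved most. They were 4 for CA against SA over both diets, 4 on CON and 1 on MCT, 0 for MCT against CON over both associations, 2 in CA and 0 in SA, and 0 for the interaction. With array weights, which gave pig 4 a weight of 0.0889, they were 7 for CA against SA on CON, 2 on MCT, 3 for MCT against CON over both associations, 4 in CA, 3 in SA and 1 for the interaction. With a second quantile normalization they were 0 for CA against SA on MCT and 1 for MCT against CON over both associations. With an intensity trend the interaction had 1. On the 12 arrays compared alone there was 1 for CA against SA on CON, 0 on MCT and 0 for MCT against CON in CA. Without pigs 4, 10 and 22 there were 2 for CA against SA over both diets, 0 on MCT, 1 for MCT against CON over both associations, 0 in CA and 1 for the interaction. With arrays centred there were 2 for CA against SA over both diets and 0 on MCT. With a piglet left out, they ran between 1 and 7 for CA against SA over both diets, 0 and 6 on CON and 0 and 2 on MCT, between 0 and 2 for MCT against CON over both associations, 0 and 7 in CA and 0 and 1 in SA, and between 0 and 2 for the interaction. The share of all genes at an unadjusted p under 0.05 was not counted under these alternatives. The moves therefore cannot be set beside those of all genes, and their cause was not tested. Taking the bright subunits alone was chosen after seeing the data and gave medians of 0.12 on CON and -0.093 for MCT in CA. No paired analysis was possible because each pig has its own number and no label pairs pigs.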
